A study of Homo sapiens with 30 samples.

Results

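The 38 protein-coding genes of the aminoacyl-tRNA synthetases were followed by RNA-seq in human lymphoma lines of the diffuse large B cell type, as 21 genes of cytosolic enzymes and 17 genes of mitochondrial enzymes among the 60656 genes listed. They were picked by symbol, as the letter of an amino acid followed by ARS with its usual endings, plus EPRS1. The rule itself used no measured value, but the set was chosen with earlier results of these data known. The data were 30 libraries in 10 groups of 3. Of these, 4 groups were OCI-LY3, HT, OCI-LY19 and SUDHL5 cells after 24 h in 0.2 µM doxorubicin, a chemotherapy drug that traps topoisomerase II on DNA, and 4 were the corresponding cells at 0 h with no drug. The last 2 groups were OCI-LY19R, a derivative of OCI-LY19 with acquired resistance that was grown in 20 nM doxorubicin until 1 week before use, and OCI-LY19S, its drug-sensitive parental culture, grown without drug. The labels call the replicates of a group biological ones and do not say whether OCI-LY19R is a clone. The titles and time tags place the untreated libraries at 0 h, whereas the protocol text can be read as a 24 h harvest for cells both with and without drug. The tags were followed, and if they hold, drug and time in culture cannot be told apart.

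Aminoacyl-tRNA synthetases join each amino acid to its tRNA, which makes them the entry point of translation. Many amino acids have a cytosolic and a mitochondrial enzyme from separate nuclear genes, here named with a 1 and a 2. GARS1 and KARS1 encode both forms from the same gene and were counted as cytosolic. EPRS1 joins glutamate and proline, while FARSA and FARSB are the subunits of the cytosolic phenylalanine enzyme. QARS1, for glutamine, has no mitochondrial counterpart, because mitochondria make glutaminyl-tRNA from glutamyl-tRNA through EARS2 and the amidotransferase subunits QRSL1, GATB and GATC. Several cytosolic enzymes sit in a complex held by the scaffold proteins AIMP1, AIMP2 and EEF1E1. Genes of many cytosolic enzymes are known targets of ATF4, the transcription factor of the amino acid response, and WARS1 is also induced by interferon.

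Read totals recovered from the values were 16067405 to 38337869 per library in the 4 lines, 23782084 to 33439107 in OCI-LY19R and 18354091 to 121769119 in OCI-LY19S. The 3 SUDHL5 libraries of a group differed less than other replicates, with a median chi-square of 1.48 to 2.56 times sampling noise, against 2.98 to 10.4 elsewhere. The spread among SUDHL5 replicates may therefore be technical. Each gene had a single estimate of spread for the 4 lines, so that the SUDHL5 libraries entered the p-values of all 4. FARSB, for example, had an SE of 0.0916 in every line. Of the libraries, OCI-LY19S replicate 1 stood apart from the other 2 parental libraries, and results that rest on it are given with and without it. B cell markers were present in every group, with a summed level of 263 to 1507 FPKM (reads scaled by gene length and by the library's total), while the markers of T and NK cells summed to 17.4 FPKM at most. The B cell markers summed to 680 to 852 FPKM in treated OCI-LY3, against 1255 to 1507 FPKM in untreated OCI-LY3, and all 6 fell. They summed to 816 to 870 FPKM in treated HT, against 1038 to 1059 FPKM in untreated HT, where 4 fell and 1 rose, and to 1202 to 1237 FPKM in treated SUDHL5, against 1011 to 1017 FPKM in untreated SUDHL5, where 5 rose. The markers of T and NK cells summed to 14.1 to 16.6 FPKM in treated SUDHL5, against 3.95 to 4.47 FPKM in untreated SUDHL5, with 2 of 3 tested risen. Myeloid markers summed to 19.5 to 32.9 FPKM in treated OCI-LY19, against 5.14 to 9.24 FPKM in untreated OCI-LY19, and to 5.23 to 6.23 FPKM in treated SUDHL5, against 0.27 to 0.46 FPKM in untreated SUDHL5. The part of these marker lists in the results was not tested. In bulk RNA, fewer cells of a type and less RNA per cell cannot be told apart.

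Cytosolic synthetase genes were expressed above the mitochondrial ones. In FPKM, which is scaled by gene length, the median level over the 30 libraries was 28.2 for the middle cytosolic gene and 8.60 for the middle mitochondrial gene. EPRS1 was the highest at a median of 70.0 FPKM, followed by KARS1 at 64.1 and QARS1 at 57.2, and IARS2, the mitochondrial isoleucine enzyme, led its compartment at 50.3. At the low end, SARS2, the mitochondrial serine enzyme, ranged from 0.584 to 1.67 FPKM, and VARS2, the mitochondrial valine enzyme, reached 0.0540 FPKM at most. VARS2 therefore failed the requirement of 1 FPKM in at least 3 libraries and was the only member not tested in either table, which left 37 members. In the annotation, 46.2% of the exon bases of SARS2 and 22.0% of those of VARS2 are shared with another gene on the same strand.

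Untreated lines differed in most of these genes. With limma's moderated F test on log2(FPKM + 1), 20 of 21 cytosolic and 16 of 16 mitochondrial members passed an adjusted p of 0.05, where 90.5% of all genes tested did so. The exception was FARSA (adjusted p = 0.299), whose mean ran from 55.3 FPKM in SUDHL5 to 65.3 FPKM in OCI-LY19. TARS3, a second cytosolic threonine enzyme, showed the clearest split (adjusted p = 4.74e-17). It averaged 4.53 ± 0.46 FPKM in HT and 3.49 ± 0.088 FPKM in OCI-LY19, then 0.304 ± 0.086 FPKM in OCI-LY3 and 0.0699 ± 0.021 FPKM in SUDHL5 (SD, n = 3 each). TARS1, the main threonine enzyme, averaged 64.8 ± 3.0 FPKM in OCI-LY19, against 23.9 ± 2.1 in HT, 17.6 ± 0.62 in SUDHL5 and 16.9 ± 1.1 in OCI-LY3 (SD, n = 3 each; adjusted p = 2.47e-13), and the last 2 overlapped. NARS1, the asparagine enzyme, averaged 19.7 ± 0.57 FPKM in SUDHL5, against 54.0 ± 2.1 in HT, 63.8 ± 2.9 in OCI-LY19 and 68.7 ± 4.3 in OCI-LY3 (adjusted p = 4.26e-16), and the last 2 overlapped.

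Among mitochondrial members, RARS2, HARS2 and IARS2 differed between untreated lines with adjusted p-values of 7.29e-13, 2.13e-12 and 3.07e-12. HARS2 and IARS2 were highest in OCI-LY19, with 10.9 ± 0.14 FPKM of HARS2 and 69.7 ± 2.6 of IARS2. OCI-LY3 was lowest for the same genes, with 3.34 ± 0.46 FPKM of HARS2 and 36.0 ± 1.5 of IARS2. RARS2, the mitochondrial arginine enzyme, was instead highest in HT at 14.9 ± 0.45 FPKM and lowest in SUDHL5 at 5.84 ± 0.14 FPKM. Its levels in OCI-LY3 and OCI-LY19 lay between them and overlapped (SD, n = 3 for each value).

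After 24 h in doxorubicin, summed cytosolic synthetase transcripts were lower in OCI-LY3, OCI-LY19 and SUDHL5, while in HT the libraries overlapped. Summed over the 21 genes, they reached 477 ± 24.8 FPKM in treated OCI-LY3, against 672 ± 29.8 FPKM in untreated OCI-LY3. In OCI-LY19 the sum was 624 ± 26.2 FPKM with drug and 865 ± 31.0 FPKM without it. SUDHL5 had 513 ± 2.02 FPKM with drug and 620 ± 7.11 FPKM without it, whereas HT had 644 ± 22.8 FPKM with drug and 655 ± 20.2 FPKM without it (SD, n = 3 each). The mitochondrial sums were 149 ± 4.15 against 165 ± 6.30 FPKM in OCI-LY3, 182 ± 6.26 against 236 ± 3.31 in OCI-LY19, 133 ± 1.87 against 165 ± 1.22 in SUDHL5 and 199 ± 8.34 against 211 ± 1.77 in HT, with the treated cells before the untreated ones. No line's libraries overlapped, but in HT they nearly touched, at 208.4 FPKM in treated replicate 2 and 208.7 FPKM in untreated replicate 3.

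**Figure D1:**
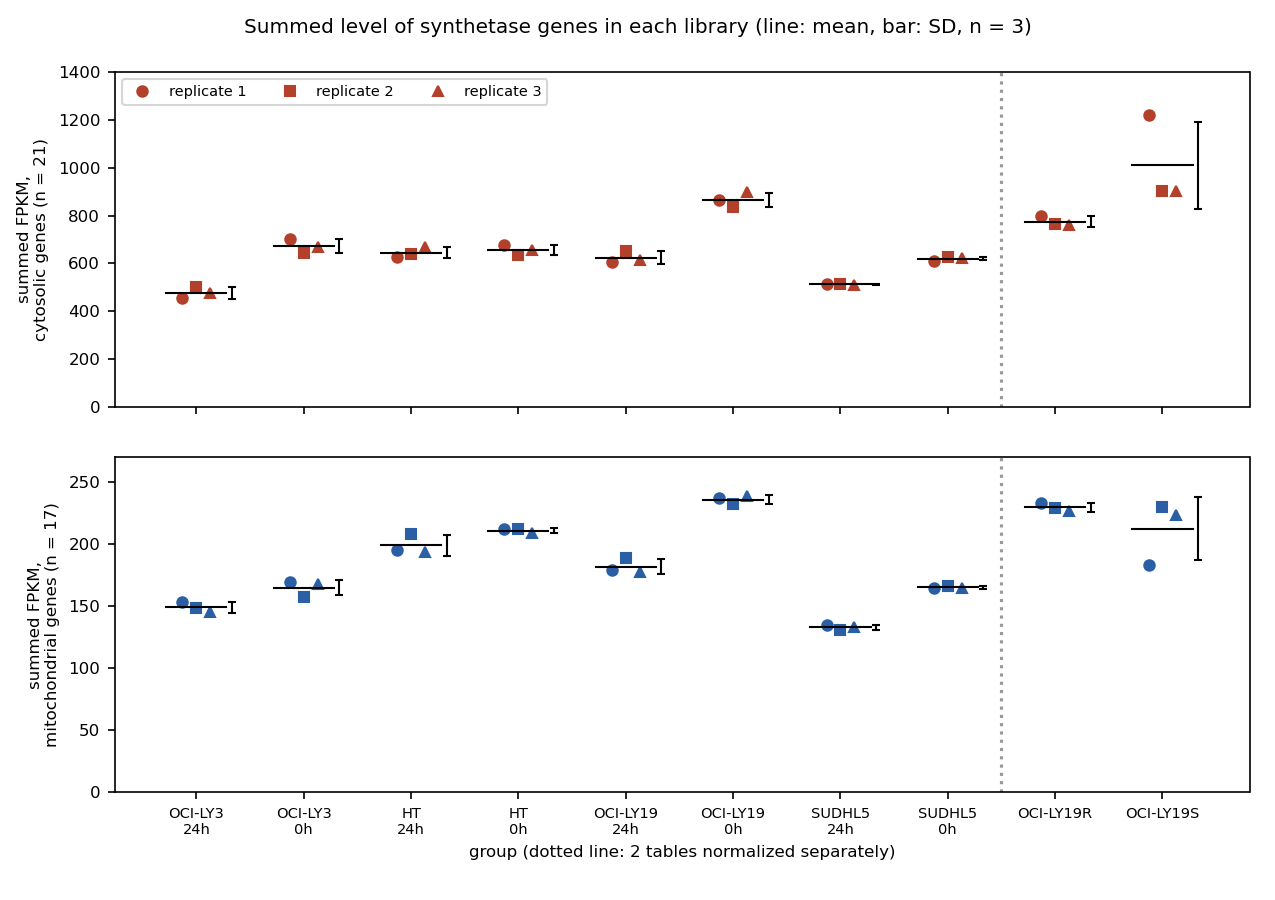
Summed FPKM (y axes, from 0) of the 21 cytosolic genes (upper panel) and the 17 mitochondrial genes (lower panel) in every library of the 10 groups, with a line at the group mean and a bar for its SD (n = 3). The treated libraries of OCI-LY3, OCI-LY19 and SUDHL5 lie below their untreated libraries in the upper panel, and OCI-LY19S replicate 1 lies apart at 1220 FPKM in the upper panel and 183 FPKM in the lower one.

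In OCI-LY3, 15 of 21 cytosolic members fell and 2 rose, where 14.3% of all 17645 genes tested fell and 40.4% rose (limma on log2(FPKM + 1), Benjamini-Hochberg adjusted p below 0.05). The largest cytosolic fall was in FARSB, with 8.53, 10.9 and 8.23 FPKM in treated libraries, against 24.5, 20.4 and 20.6 FPKM in untreated ones. Its log2 change was -1.16 ± 0.0916 (SE, adjusted p = 4.22e-09), and its partner subunit FARSA fell by 0.77. VARS1, the cytosolic valine enzyme, had 14.6, 17.4 and 16.0 FPKM with drug, against 32.0, 29.9 and 36.2 FPKM without it, a log2 change of -0.98 ± 0.108 (adjusted p = 2.65e-07). MARS1, the methionine enzyme that also charges the initiator tRNA, had 18.2, 26.0 and 21.8 FPKM with drug and 44.9, 40.5 and 41.2 FPKM without it, a log2 change of -0.92 ± 0.0799 (adjusted p = 1.38e-08). YARS1, the tyrosine enzyme, fell by 0.84 (adjusted p = 1.04e-07), with 11.8, 15.0 and 12.5 FPKM in treated libraries and 26.9, 22.9 and 23.0 FPKM in untreated ones. For all 4 genes every treated library lay below every untreated one, and groups did not overlap for 18 of 21 cytosolic and 7 of 16 mitochondrial members, in either direction, where 57.4% of all genes tested showed no overlap. Counting both directions, 54.7% of all genes tested passed in this line.

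The cytosolic members that rose in OCI-LY3 were AARS1 and QARS1. AARS1, the alanine enzyme, had 16.4, 16.8 and 17.3 FPKM with drug, against 13.1, 11.6 and 11 FPKM without it (log2 change 0.47 ± 0.0983, adjusted p = 0.000447), with no overlap; the change was 0.21 (adjusted p = 0.118) with median-of-ratios scaling. The median of all genes was itself shifted by 0.16 in OCI-LY3, and by 0.00636 with median-of-ratios scaling. Under that scaling no cytosolic member rose, and the cytosolic median of -0.43 became -0.71. The mitochondrial median was 0.01, against -0.00043 on the TPM scale, -0.20 after median-of-ratios scaling and -0.24 after quantile scaling, so its sign depended on the scaling. Upward changes made up 73.9% of all calls in OCI-LY3, against 51.5% under median-of-ratios and 50.9% under quantile scaling.

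Of the 16 mitochondrial members tested in OCI-LY3, 4 fell and 3 rose. MARS2, the mitochondrial methionine enzyme, had the largest change among members in this line, with 5.56, 8.02 and 6.92 FPKM in treated libraries, against 19.9, 17.6 and 17.8 FPKM in untreated ones (log2 change -1.32 ± 0.126, adjusted p = 4.84e-08). NARS2, for asparagine, had 8.13, 7.62 and 6.60 FPKM with drug and 13.4, 11.3 and 13.7 FPKM without it, a log2 change of -0.70 (adjusted p = 2.63e-07). EARS2, for glutamate, had 4.15, 5.06 and 3.90 FPKM with drug and 6.99, 6.88 and 7.02 FPKM without it, a log2 change of -0.57 (adjusted p = 0.000116). None of these groups of libraries overlapped. RARS2 and HARS2 rose.

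In OCI-LY19, 16 of 21 cytosolic members fell and 3 rose, and 9 of 16 mitochondrial members fell and 2 rose, where 23.7% of all genes tested fell and 34.5% rose. GARS1, the glycine enzyme, had 11.2, 13.1 and 11.7 FPKM with drug, against 24.8, 24.2 and 26.7 FPKM without it, which is a log2 change of -1.02 ± 0.0892 (adjusted p = 1.05e-08). YARS1 had 13.6, 15.9 and 14.8 FPKM with drug and 29.9, 29.3 and 32.6 FPKM without it, a log2 change of -1.01 ± 0.0858 (adjusted p = 7.27e-09). Both subunits of the phenylalanine enzyme fell, FARSB by 0.80 and FARSA by 0.73 (adjusted p = 3.79e-07 and 7.06e-05). FARSB had 9.90, 11.6 and 9.92 FPKM with drug and 19.2, 18.9 and 18.7 FPKM without it, while FARSA had 35.1, 49.0 and 34.3 FPKM with drug and 60.9, 65.9 and 69.2 FPKM without it. Treated and untreated libraries did not overlap for any of the 21 cytosolic members and for 11 of 16 mitochondrial ones, where 61.2% of all genes tested showed no overlap and 58.2% passed in either direction.

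The cytosolic members that rose in OCI-LY19 were SARS1, QARS1 and HARS1. SARS1, the serine enzyme, which also charges the tRNA for selenocysteine, had 46.9, 42.6 and 51.8 FPKM in treated libraries, against 29.7, 29.7 and 33.0 FPKM in untreated ones (log2 change 0.59 ± 0.0781, adjusted p = 2.29e-06). With median-of-ratios scaling 1 cytosolic member rose in OCI-LY19, and SARS1 was that member. Upward changes made up 59.3% of all calls in this line, against 44.7% under quantile scaling.

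Among mitochondrial members of OCI-LY19, MARS2 again fell most, with 8.94, 11.8 and 8.64 FPKM with drug, against 24.1, 20.6 and 22.3 FPKM without it (log2 change -1.12 ± 0.126, adjusted p = 3.21e-07). NARS2 and EARS2 fell by 0.71 and 0.70 (adjusted p = 1.84e-07 and 1.09e-05). NARS2 had 8.44, 10.9 and 9.19 FPKM with drug and 16.0, 16.0 and 16.5 FPKM without it, and EARS2 had 5.77, 6.98 and 5.52 FPKM with drug and 10.5, 10.6 and 10.3 FPKM without it. HARS2, the mitochondrial histidine enzyme, rose instead, with 17.2, 16.4 and 18.2 FPKM in treated libraries and 11.1, 10.9 and 10.8 FPKM in untreated ones (log2 change 0.61 ± 0.0810, adjusted p = 2.46e-06). HARS1 and HARS2 lie head to head, 11.7% of the exon bases of HARS2 overlap HARS1 on the opposite strand, and the strand setting of the counting is not given in the sources used here, so their separate values are uncertain.

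In SUDHL5, 11 of 21 cytosolic members fell and 3 rose, and 6 of 16 mitochondrial members fell and 1 rose, where 19.9% of all genes tested fell and 18.6% rose. EPRS1 had 24.6, 24.0 and 25.5 FPKM with drug, against 46.9, 49.1 and 49.4 FPKM without it (log2 change -0.95 ± 0.0742, adjusted p = 6.64e-09). FARSB had 6.57, 7.19 and 7.38 FPKM with drug and 11.6, 12.4 and 11.7 FPKM without it, a log2 change of -0.68 (adjusted p = 6.89e-06). AARS1 had 25.6, 24.9 and 24.4 FPKM with drug and 38.8, 40.8 and 41.3 FPKM without it, a log2 change of -0.67 (adjusted p = 1.95e-05). The treated libraries lay below the untreated ones for each of these 3 genes. Groups did not overlap for 18 of 21 cytosolic and 9 of 16 mitochondrial members, where 59.9% of all genes tested showed no overlap and 38.5% passed in either direction. The cytosolic members that rose were HARS1, WARS1 and QARS1, and the mitochondrial one was EARS2.

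Among the mitochondrial members that fell in SUDHL5 were NARS2, YARS2 and IARS2, by 0.80, 0.58 and 0.50 on the log2 scale (adjusted p = 1.01e-07, 7.70e-06 and 1.60e-07). NARS2 had 4.54, 4.61 and 4.65 FPKM with drug and 8.78, 8.83 and 8.70 FPKM without it. YARS2, for tyrosine, had 18.4, 16.9 and 18.6 FPKM with drug and 26.4, 27.8 and 27.8 FPKM without it. IARS2 had 30.7, 30.9 and 31.4 FPKM with drug and 44.6, 44.6 and 43.7 FPKM without it, again without overlap. MARS2, which fell in the other 3 lines, had 8.09, 8.14 and 8.72 FPKM with drug and 8.02, 7.93 and 7.45 FPKM without it (log2 change 0.08, adjusted p = 0.677). Upward changes made up 48.4% of all calls in this line, against 38.1% on the TPM scale.

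In HT, 3 of 21 cytosolic members rose and 2 fell, and of 16 mitochondrial members 2 fell and 0 rose, where 22.9% of all genes tested rose and 9.41% fell. At an unadjusted p under 0.05 the mitochondrial count was 0 higher and 3 lower. MARS2 had 11.7, 14.5 and 9.84 FPKM with drug, against 21.2, 20.4 and 17.8 FPKM without it (log2 change -0.69 ± 0.126, adjusted p = 0.000362). HARS2 had 8.28, 8.05 and 7.47 FPKM with drug and 10.3, 9.69 and 9.48 FPKM without it (log2 change -0.28, adjusted p = 0.0133). MARS1 had 26.4, 27.2 and 26.8 FPKM with drug and 37.0, 33.1 and 33.2 FPKM without it (log2 change -0.35 ± 0.0799, adjusted p = 0.00235). Every treated library was below every untreated one for these genes. Groups did not overlap for 9 of 21 cytosolic and 4 of 16 mitochondrial members, where 42.2% of all genes tested showed no overlap and 32.3% passed in either direction.

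The members that rose in HT were AARS1, TARS3 and QARS1. AARS1 had 27.0, 27.5 and 39.5 FPKM with drug, against 24.9, 23.2 and 23.9 FPKM without it, so the treated libraries were higher and replicate 3 was far above the other 2. Its log2 change of 0.35 (adjusted p = 0.010) became 0.18 without that library (adjusted p = 0.0552). TARS3 had 6.19, 5.11 and 6.43 FPKM with drug and 4.33, 4.21 and 5.06 FPKM without it, a log2 change of 0.32 (adjusted p = 0.00237). In HT replicate 3 with drug, AARS1 was 1.45 times and CARS1, the cysteine enzyme, 1.43 times the mean of the other 2 treated libraries. The amino acid response genes CHAC1, DDIT3 and CTH were 5.83, 2.48 and 2.18 times that mean in the same library. Over 20 such genes the median ratio was 1.14, against 0.978 over all genes, 1.06 over cytosolic and 0.961 over mitochondrial members. The part of that library's state in the other HT results was not tested beyond leaving it out. HT counts depended on the settings: when the 2 HT groups were fitted alone, 0 cytosolic members rose and 1 fell, and after median-of-ratios scaling 1 rose and 6 fell. The QARS1 call was also lost without treated replicate 3 (adjusted p = 0.109), and that of HARS2 likewise (adjusted p = 0.0630). Upward changes made up 70.9% of all calls in HT, against 55.9% under median-of-ratios and 52.2% under quantile scaling.

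**Figure D2:**
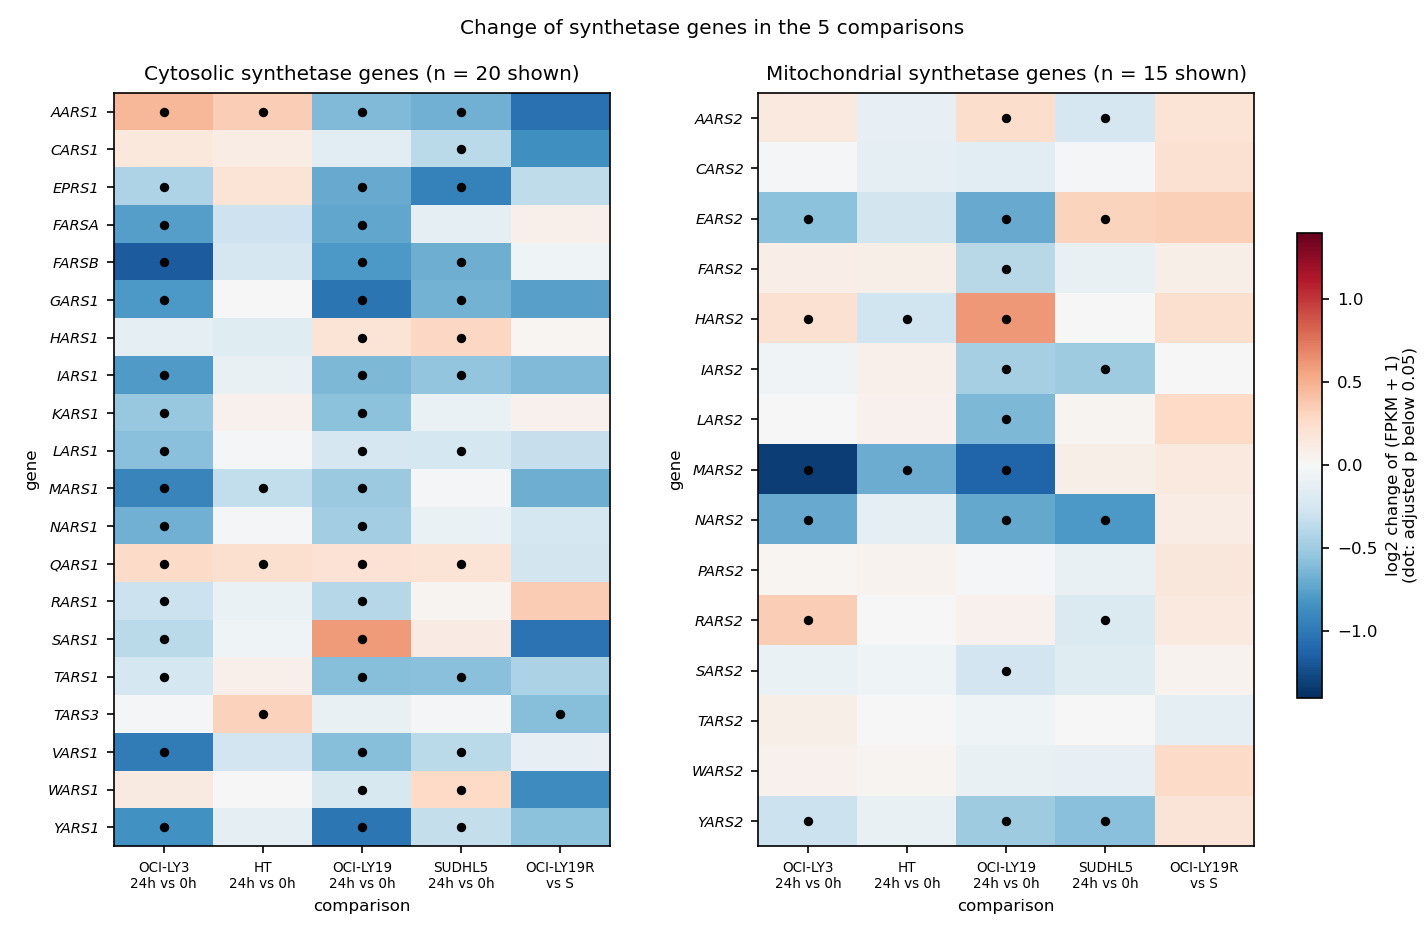
Log2 change of (FPKM + 1) for 20 cytosolic (left) and 15 mitochondrial (right) synthetase genes in the 5 comparisons, 24h against 0h in each line and OCI-LY19R against OCI-LY19S, with a dot where the adjusted p was below 0.05. The columns of OCI-LY3 and OCI-LY19 are mostly blue among cytosolic genes, QARS1 is red in the 4 lines, and the last column holds 1 dot, at TARS3.

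Across the 4 lines, 10 cytosolic members fell in at least 3 and rose in 0, among them EPRS1, FARSB, GARS1, IARS1, LARS1, MARS1, TARS1, VARS1 and YARS1. The share of all genes tested was not counted for this or the other counts over lines in this paragraph. How usual such recurrence is over all genes therefore cannot be judged here. The median log2 change of the cytosolic members was -0.03 in HT, -0.52 in OCI-LY19 and -0.24 in SUDHL5, and that of the mitochondrial members was -0.03, -0.33 and -0.11, where the medians of all genes were 0.06, 0.08 and 0.0013. These member medians kept their sign under TPM, median-of-ratios and quantile scaling. Among mitochondrial members, MARS2, NARS2 and YARS2 fell in 3 lines each, while CARS2, PARS2, TARS2 and WARS2 passed in none. QARS1 rose in all 4 lines. It had 60.0, 52.9 and 61.5 FPKM with drug in OCI-LY3, against 48.3, 46.0 and 49.9 FPKM without it, and 70.8, 71.2 and 70.2 FPKM with drug in SUDHL5, against 61.8, 62.5 and 61.2 FPKM without it. Its log2 changes were 0.27, 0.23, 0.21 and 0.19 in OCI-LY3, HT, OCI-LY19 and SUDHL5. With median-of-ratios scaling they became -0.00, 0.14, 0.10 and 0.21, and only that of SUDHL5 passed, while on the TPM scale the SUDHL5 change of 0.11 did not (adjusted p = 0.179).

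The response differed among the lines for 20 of 21 cytosolic and 11 of 16 mitochondrial members (moderated F test of the difference in response, adjusted p below 0.05), where 72.2% of all genes tested differed. The cytosolic exception was QARS1 (adjusted p = 0.888), and the mitochondrial ones were WARS2, SARS2, TARS2, CARS2 and PARS2. AARS1, SARS1 and WARS1 passed in opposite directions in different lines. AARS1 (adjusted p of the difference = 3.21e-07) rose in OCI-LY3 and HT and fell in OCI-LY19, by 0.62, and in SUDHL5, by 0.67. In OCI-LY19 it had 20.1, 22.0 and 21.8 FPKM with drug and 32.7, 31.5 and 35.6 FPKM without it. SARS1 rose in OCI-LY19 and fell by 0.38 in OCI-LY3, where it had 27.5, 29.8 and 27.3 FPKM with drug and 40.1, 33.2 and 37.8 FPKM without it (adjusted p of the difference = 3.03e-06).

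EPRS1 fell by 0.43, 0.71 and 0.95 in OCI-LY3, OCI-LY19 and SUDHL5, while in HT it had 68.0, 73.6 and 81.0 FPKM with drug and 63.0, 66.8 and 64.0 FPKM without it, which did not pass (adjusted p = 0.0522; p of the difference among lines = 1.35e-07 after adjustment). NARS1 fell by 0.67 in OCI-LY3 and by 0.49 in OCI-LY19, and its log2 changes in HT and SUDHL5 were -0.03 and -0.09 (adjusted p of the difference = 1.39e-06). Of the mitochondrial members, IARS2, MARS2 and HARS2 had adjusted p-values of the difference of 7.98e-07, 5.99e-06 and 1.30e-05. IARS2 fell in OCI-LY19 and SUDHL5 and had 37.4, 33.6 and 33.1 FPKM with drug in OCI-LY3, against 37.5, 34.6 and 35.9 FPKM without it, which overlapped.

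**Figure D3:**
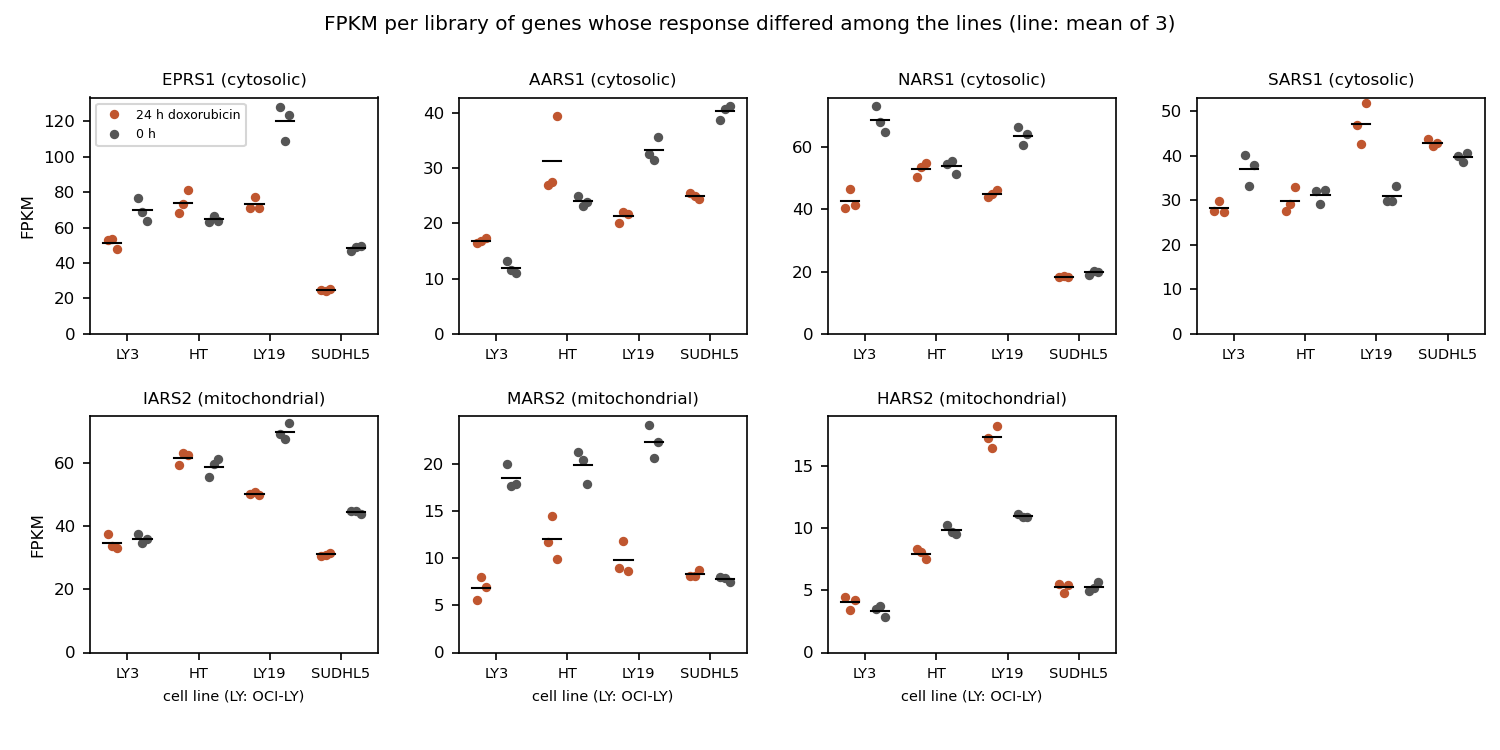
FPKM (y axes, from 0) of EPRS1, AARS1, NARS1 and SARS1 (upper row, cytosolic) and of IARS2, MARS2 and HARS2 (lower row, mitochondrial) in each library of the 4 lines, with 24 h doxorubicin left of 0 h and a line at the mean of 3. AARS1 is higher with drug in OCI-LY3 and HT and lower in OCI-LY19 and SUDHL5, and MARS2 is lower in the 3 lines other than SUDHL5.

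The cytosolic and the mitochondrial enzyme for the same amino acid moved in opposite directions in some pairs in which both passed. In OCI-LY3, RARS1 fell while RARS2 rose. RARS1 had 22.0, 27.4 and 24.8 FPKM with drug and 31.7, 30.8 and 29.3 FPKM without it (log2 change -0.30, adjusted p = 0.00240). RARS2 had 12.1, 12.0 and 13.0 FPKM with drug and 9.59, 9.24 and 9.72 FPKM without it (log2 change 0.35, adjusted p = 2.38e-05, or 0.09 and 0.234 with median-of-ratios scaling). In OCI-LY19, AARS1 fell while AARS2, the mitochondrial alanine enzyme, rose with 15.1, 14.2 and 14.8 FPKM, against 12.1, 12.6 and 11.9 FPKM without drug (log2 change 0.24, adjusted p = 0.00126). There too SARS1 rose while SARS2 fell by 0.27 at levels near 1 FPKM, with 1.12, 1.08 and 0.584 FPKM with drug and 1.33, 1.45 and 1.16 FPKM without it (adjusted p = 0.0293, or 0.234 without treated replicate 3). In SUDHL5, EPRS1 fell while EARS2 rose by 0.31, with 7.18, 8.25 and 7.67 FPKM in treated libraries and 5.98, 5.93 and 6.09 FPKM in untreated ones (adjusted p = 0.0238). That call of EARS2 was lost on the TPM scale (adjusted p = 0.0923) and when any 1 of 4 of the 6 libraries was left out.

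The mean log2 level of the cytosolic genes less that of the mitochondrial genes gives a contrast of the compartments within a library. It was 1.33 ± 0.10 in treated OCI-LY3, against 1.66 ± 0.026 in untreated OCI-LY3. It was 1.54 ± 0.044 with drug and 1.68 ± 0.047 without it in OCI-LY19, and 1.54 ± 0.011 with drug and 1.64 ± 0.021 without it in SUDHL5. In HT it was 1.54 ± 0.10 with drug and 1.48 ± 0.052 without it (SD, n = 3 each). Treated and untreated libraries overlapped in HT and in no other line, and the HT change of 0.06 was -0.00 without treated replicate 3. The change of -0.33 in OCI-LY3 became -0.68 with the median over genes in place of the mean and -0.17 with quantile normalization. With that median the HT change became 0.34, the OCI-LY19 change of -0.13 became -0.066 and the SUDHL5 change of -0.093 became 0.0011. With quantile normalization the OCI-LY19 change was 0.082, that of HT 0.13 and that of SUDHL5 -0.035, so its size depended on the measure in all 4 lines and its sign in OCI-LY19 and SUDHL5.

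Other genes of the translation machinery and its regulation were counted in the same fits. Their counts stand beside 40.4%, 22.9%, 34.5% and 18.6% of all genes that rose in OCI-LY3, HT, OCI-LY19 and SUDHL5, and 14.3%, 9.41%, 23.7% and 19.9% that fell. All 3 scaffold genes of the synthetase complex fell in OCI-LY3 and OCI-LY19, led by AIMP2 in OCI-LY3 with a mean of 17.4 FPKM with drug and 45.1 FPKM without it (log2 change -1.36, adjusted p = 1.46e-07). In SUDHL5 2 of the 3 fell, and in HT AIMP2 alone fell. Of the cytosolic elongation factors, all 4 tested rose in OCI-LY19, led by EEF1A1 (log2 change 0.77, adjusted p = 6.39e-08). Of the same 4, 2 rose in SUDHL5 and 1 in HT, while in OCI-LY3 1 fell and 0 rose. Of 8 mitochondrial translation factors, 4 fell in OCI-LY3, among them GFM1 by 0.92 and TUFM by 0.65, and 3 in HT, 2 in OCI-LY19 and 3 in SUDHL5. Of the same 8, 1 rose in OCI-LY3 and 1 in HT, and 0 rose in OCI-LY19 and SUDHL5. Of 4 listed partners of mitochondrial tRNA charging, 2 fell in OCI-LY3, 1 in HT and 3 in OCI-LY19, while in SUDHL5 1 rose and 0 fell. Among them QRSL1, a subunit of the amidotransferase that works with EARS2, fell by 1.01 in OCI-LY3 and rose by 0.48 in SUDHL5 (adjusted p = 5.69e-09 and 0.000105), the directions that EARS2 took in those lines. It fell by 0.29 in OCI-LY19 (adjusted p = 0.00432), where EARS2 fell too. The amidotransferase subunits GATB and GATC did not pass in SUDHL5. MYC, a transcription factor of growth genes, fell in all 4 lines, by 2.71, 1.24, 0.69 and 0.72 in OCI-LY3, HT, OCI-LY19 and SUDHL5 (adjusted p = 4.15e-10, 3.42e-05, 0.00218 and 0.00281).

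Of 23 amino acid response genes tested, 6 rose and 8 fell in OCI-LY3, 7 rose and 2 fell in HT, 5 rose and 14 fell in OCI-LY19, and 2 rose and 13 fell in SUDHL5. Their median log2 change was 0.02, 0.16, -0.44 and -0.41 in the same order, against 0.16, 0.06, 0.08 and 0.0013 over all genes. In OCI-LY19 the stress gene SESN2 rose by 3.13, while PHGDH, the first enzyme of serine synthesis, and SLC7A5, a transporter of large amino acids, fell by 2.06 and 1.87 (adjusted p = 1.99e-14, 1.88e-09 and 4.13e-10). In HT the largest rise was that of CTH, a cysteine-forming enzyme, by 1.04 (adjusted p = 0.000365). Of the 9 interferon-induced genes set beside WARS1, 6 rose in OCI-LY3, 4 in HT, 4 in OCI-LY19 and 6 in SUDHL5, with 2 falling in OCI-LY19, where the share of all genes that rose was 40.4%, 22.9%, 34.5% and 18.6%. WARS1 itself had 25.5, 24.7 and 26.3 FPKM with drug in SUDHL5, against 20.4, 20.9 and 21.3 FPKM without it (log2 change 0.28, adjusted p = 0.00344), and it fell by 0.23 in OCI-LY19 (adjusted p = 0.00818).

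In resistant OCI-LY19R the summed cytosolic synthetase transcripts were lower than in the parental culture, while 1 of 21 cytosolic members passed the test. The cytosolic sum was 800, 765 and 760 FPKM in OCI-LY19R, against 1220, 903 and 904 FPKM in OCI-LY19S. The mitochondrial sum was 233, 229 and 226 FPKM in OCI-LY19R, against 183, 230 and 224 FPKM in OCI-LY19S. OCI-LY19S replicate 1 was thus the highest of the 6 libraries in the cytosolic sum and the lowest in the mitochondrial one. The median log2 change was -0.36 over cytosolic and 0.17 over mitochondrial members, where that of all 12785 genes tested was 0.05. The libraries of the 2 cultures did not overlap for 15 of 21 cytosolic and 6 of 16 mitochondrial members, where 32.7% of all genes tested showed no overlap. Of these, 14 cytosolic members and 1 mitochondrial member (TARS2) were lower in every resistant library, and 1 cytosolic member (RARS1) and 5 mitochondrial members were higher. All genes that averaged at least 1 FPKM in the parental libraries other than replicate 1 numbered 12244. Of them 1507 (12.3%) were lower and 2421 higher in every resistant library. RARS1 had 33.9, 41.2 and 37.9 FPKM in OCI-LY19R and 24.2, 31.3 and 32.9 FPKM in OCI-LY19S (log2 change 0.35, adjusted p = 0.187), and the log2 changes of FARSA, KARS1 and HARS1 were 0.07, 0.07 and 0.03.

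By limma's test with Benjamini-Hochberg adjustment, 1 cytosolic member fell, 0 rose, and 0 mitochondrial members passed, where 2.34% of all genes tested fell and 3.11% rose, 5.44% in all. At an unadjusted p under 0.05, 10 cytosolic members were lower and 1 higher, and of the mitochondrial members 1 was higher and 0 lower. Among all 12785 genes tested, 3002 had an unadjusted p under 0.05 in that fit. The member that passed was TARS3, with 3.33, 2.97 and 3.57 FPKM in OCI-LY19R and 5.42, 5.87 and 5.13 FPKM in OCI-LY19S (log2 change -0.60 ± 0.0930, adjusted p = 0.0208). Its libraries did not overlap, and its adjusted p was 0.0688 with the replicate block, under which AARS1 was instead the cytosolic member that passed (adjusted p = 0.0291). Upward changes made up 57.0% of all calls, against 44.9% under median-of-ratios and 47.0% under quantile scaling. In the authors' deposited table of this comparison, 9 cytosolic members had an adjusted p below 0.05, all lower in OCI-LY19R: AARS1, EPRS1, GARS1, IARS1, MARS1, QARS1, TARS1, TARS3 and YARS1. In the same deposited table the authors list 0 of 17 mitochondrial members below that threshold. The share of all genes below it there was not counted, so how usual such counts are in the deposited comparison cannot be judged.

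**Figure D4:**
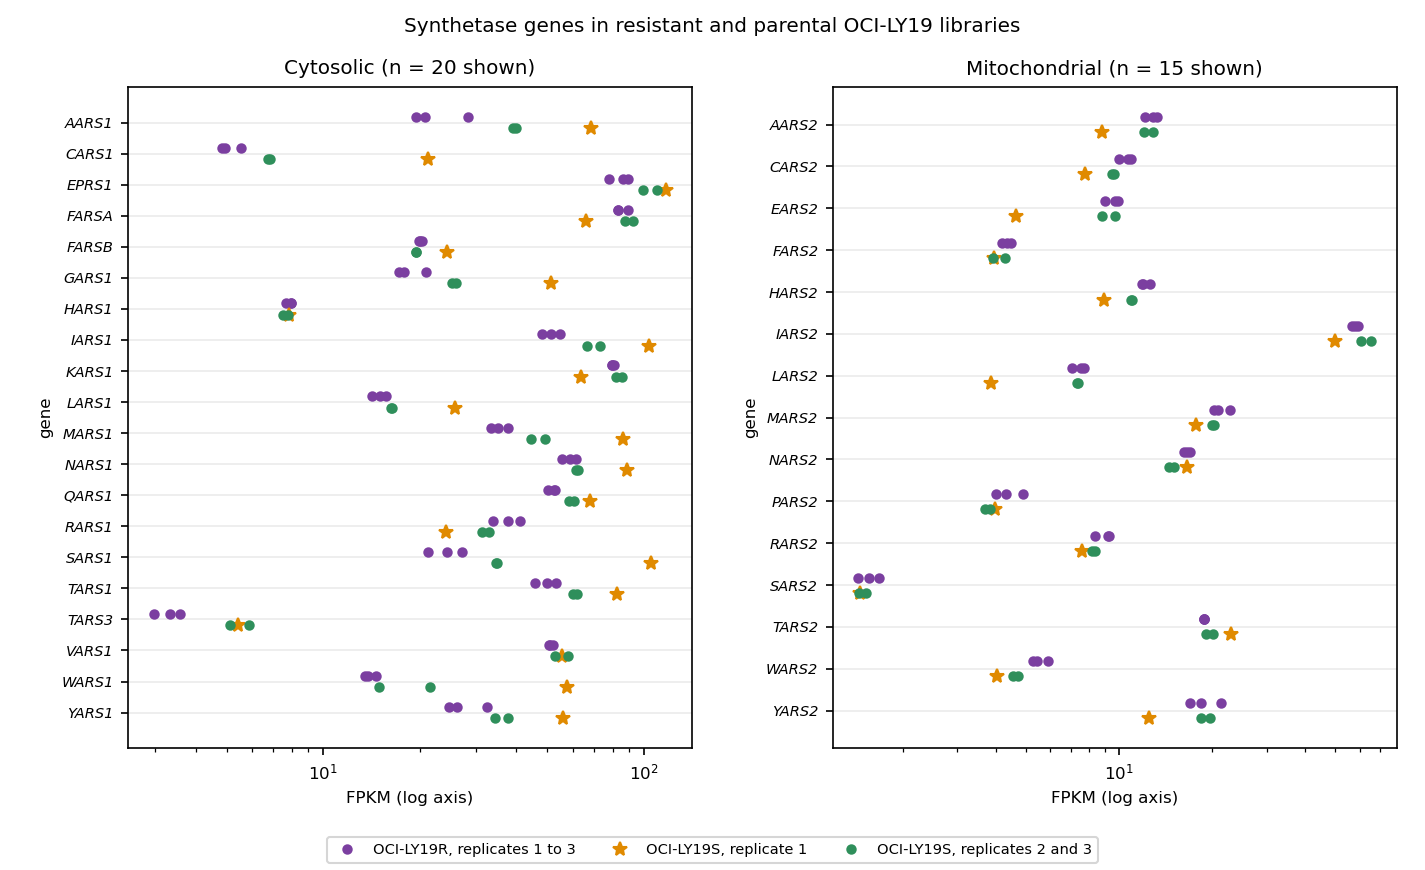
FPKM (log axis) of 20 cytosolic (left) and 15 mitochondrial (right) synthetase genes in each library of OCI-LY19R (purple, upper points of a row) and OCI-LY19S (lower points, with replicate 1 as a star and replicates 2 and 3 in green). For SARS1, WARS1, CARS1 and GARS1 the star lies at 105, 57.9, 21.2 and 51.4 FPKM, far to the right of the other points, and for EARS2 and LARS2 it lies to their left.

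In OCI-LY19S replicate 1, several cytosolic members lay far above the other parental libraries. Relative to the mean of the other 2 parental libraries, WARS1, CARS1, SARS1 and GARS1 were at 3.17, 3.12, 3.02 and 2.01 times that level in it. In all, 8 of 21 cytosolic members and 0 of 16 mitochondrial members were at 1.5 times or more, against 10.2% of all genes. FARSA, KARS1 and RARS1 were lower in it, at 0.73, 0.76 and 0.75 times the mean of the other 2. The mitochondrial members EARS2 and LARS2 had 4.63 and 3.85 FPKM in that library, against 8.79 to 9.72 and 7.29 to 7.37 FPKM in the other 2. Among amino acid response genes 18 of 21 were at 1.5 times or more, led by CHAC1, a glutathione-degrading enzyme, with 21.8 FPKM against 1.45 and 2.63 FPKM, SESN2 with 51.9 against 4.66 and 9.07 FPKM, and CTH with 29.8 against 4.27 and 4.85 FPKM. This library had 18354091 reads, the fewest of the 6, while OCI-LY19S replicate 2 had 20558372 and replicate 3 had 121769119, and the part of depth in these values was not tested.

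Without OCI-LY19S replicate 1, the cytosolic members that fell in OCI-LY19R numbered 7 of 21, where 3.86% of all genes fell and 4.97% rose. Of the mitochondrial members 0 of 16 passed (2 at an unadjusted p under 0.05, as were 3814 of all 12785 genes tested). The 7 cytosolic members were AARS1, CARS1, GARS1, IARS1, MARS1, SARS1 and TARS3. AARS1 had 28.2, 19.5 and 20.8 FPKM in OCI-LY19R, against 39.9 and 39.2 FPKM in OCI-LY19S replicates 2 and 3 and 68.4 FPKM in replicate 1. Its log2 change was -0.78 ± 0.153 without replicate 1 (adjusted p = 0.0368) and -1.04 ± 0.240 with it (adjusted p = 0.0570). SARS1 had 27.2, 24.4 and 21.3 FPKM in OCI-LY19R and 34.9 and 34.7 FPKM in those parental libraries, a log2 change of -0.51 (adjusted p = 0.0399), and 105 FPKM in replicate 1. IARS1, the cytosolic isoleucine enzyme, had 51.4, 48.1 and 55.0 FPKM in OCI-LY19R and 73.2 and 66.4 FPKM in those parental libraries, a log2 change of -0.43 (adjusted p = 0.0327). The 3 resistant libraries lay below both parental ones for each of these genes. Leaving out OCI-LY19S replicate 2 or any library of OCI-LY19R left 0 cytosolic members past the threshold, with 4 to 13 at an unadjusted p under 0.05, and leaving out OCI-LY19S replicate 3 left TARS3. In the fits that left 0, 1834 to 2702 of all 12785 genes tested had an unadjusted p under 0.05. After adjustment 0.258% to 1.14% of all genes fell in those fits.

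Amino acid response genes lay lower in OCI-LY19R together with these members. With all libraries 0 of 21 passed (14 at an unadjusted p under 0.05, as were 3002 of all 12785 genes tested). Their median log2 change was -0.89 in that fit. Without OCI-LY19S replicate 1, 9 fell, 0 rose and the median was -0.47, an alternative chosen after seeing the data. In that fit 3.86% of all genes fell and 4.97% rose. Leaving out any other library left 0 of 21 past the threshold. The 9 were ATF5, CHAC1, CTH, MTHFD2, PSAT1, PSPH, SLC1A5, SLC3A2 and SLC7A5. ATF5, a transcription factor related to ATF4, had 24.2, 25.6 and 22.1 FPKM in OCI-LY19R, against 54.1 and 47.7 FPKM in OCI-LY19S replicates 2 and 3 (log2 change -1.05, adjusted p = 0.00673) and 225 FPKM in replicate 1. MARS1 shares 12.4% of its exon bases with ARHGAP9 and DDIT3 on the opposite strand, and DDIT3 in OCI-LY19S replicate 1 was at 4.91 times the mean of the other 2 parental libraries.

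The promoters were read for the core of the C/EBP-ATF response element, TGATGNAA, a search chosen after the amino acid response genes were seen to lie low in OCI-LY19R. RefSeq promoter windows of GRCh38.p14, from 250 bases before to 50 bases after a transcript start, were at hand for 30 of the 38 members, as 21 windows of 16 cytosolic and 18 windows of 14 mitochondrial members; LARS1, TARS3, VARS1, YARS1, AARS2 and VARS2 were among those without one. On either strand the motif stood in 7 cytosolic members and 1 mitochondrial member (YARS2), where 3.62% of all 35116 promoter windows hold it. The cytosolic members with it were AARS1, CARS1, GARS1, IARS1, MARS1, NARS1 and TARS1, and whether it bears on their levels was not tested. The search fixed every letter in capitals except the N, so the likeness of the matches was set in advance. The stretches around all 7 follow, on the strand of the gene with the motif in capitals (read as its reverse complement in all but NARS1)
AARS1 at chr16:70289675-70289704, motif from position -187: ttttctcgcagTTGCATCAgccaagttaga
CARS1 at chr11:3057407-3057436, motif from position -2: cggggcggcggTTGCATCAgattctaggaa
GARS1 at chr7:30594834-30594863, motif from position -33: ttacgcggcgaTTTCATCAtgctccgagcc
IARS1 at chr9:92293692-92293721, motif from position -13: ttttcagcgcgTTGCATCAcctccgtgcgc
MARS1 at chr12:57488053-57488082, motif from position -4: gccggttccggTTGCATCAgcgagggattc
NARS1 at chr18:57621804-57621833, motif from position 15: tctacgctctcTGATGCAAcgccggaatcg
TARS1 at chr5:33440956-33440985, motif from position 3: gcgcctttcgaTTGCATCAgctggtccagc

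Positions are counted from the transcript start of the RefSeq window, which need not be the gene's outer end in GENCODE 29. It lies 12623 bases inside the gene for MARS1, 377 for NARS1 and 190 for CARS1. For the TARS1 and GARS1 windows shown it lies 269 and 197 bases inside, and for IARS1 and AARS1 59 and 37. A match describes letters only. The E-box CACGTG, the letters bound by MYC among other factors, stood in CARS2, EARS2, MARS2 and IARS1, against 7.26% of all windows. MARS2 and IARS1 fell in 3 lines each, EARS2 fell in 2 and rose in SUDHL5, and CARS2 passed in 0 lines, while MYC fell in all 4. The E-boxes of MARS2 and CARS2, which are shown, lie next to the start of the window's transcript, from positions -11 and -3. That of EARS2, not shown, also lies near the start, from positions 11 and -15 in its 2 windows. MARS2 fell and CARS2 did not pass. The start of the window's transcript lies 0 bases inside the gene for MARS2 and 7088 bases inside it for the CARS2 window shown.
MARS2 at chr2:197705347-197705374: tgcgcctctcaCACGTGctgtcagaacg
CARS2 at chr13:110706502-110706529: gctgggatgcaCACGTGcttcgctaaca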

How the data were processed

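FPKM values were deposited in 2 tables, one of the 4 lines at both times and one of OCI-LY19R and OCI-LY19S, normalized separately, so no test crosses them. Per the submitters' processing notes the authors used Trimmomatic, STAR, featureCounts and hg38; the sources used here do not name the annotation release, the strand setting or the tool of the authors' comparison. Libraries were made with a directional kit, per the labels' protocols. Per the file headers, the deposited comparison also holds a mean normalized signal, a log2 fold change, its SE and statistic (score) and a p-value.

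Genes with at least 1 FPKM in 3 or more libraries of a table were tested on log2(FPKM + 1) with limma 3.58.1 (R 4.3.3, intensity trend), fitting all groups of a table together, with Benjamini-Hochberg adjustment over all genes tested. Fold changes on this scale understate the change of low genes. The fit was tested on simulated data. Read totals were recovered from the steps of the FPKM values. The members and gene lists were chosen with earlier results of these data known. Members named with values are, per comparison, the 4 per compartment of largest change past the threshold, the 4 of smallest adjusted p per F test, and partner pairs that passed in opposite directions; SARS1, WARS1, CARS1, GARS1, EARS2 and LARS2 in the parental libraries, and QARS1, were singled out after their values were seen. The values of 2 members and of 1 other listed gene are not reported here; these genes stay in the counts, medians and sums. Only in HT did the deviations of every same-numbered pair of libraries correlate above those of differently numbered ones, at 0.167, 0.320 and 0.347. Same-numbered libraries correlated at 0.355, 0.259 and 0.0364 in OCI-LY19 and at -0.0116, 0.0914 and 0.362 in OCI-LY3, so pairing may hold there in part. Alternatives covered pseudocount, filter, scaling, samples fitted, variance model, replicate block, library-name tags and leaving out each library.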

Additional observations from a re-analysis of the deposited data

Results flagged for a closer look

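The response to doxorubicin differed among the 4 lines for the members below, by limma's moderated F test of the difference itself with adjustment over all 17645 genes tested. Among cytosolic members the adjusted p was 1.35e-07 for EPRS1, 3.21e-07 for AARS1, 1.39e-06 for NARS1 and 3.03e-06 for SARS1. Among mitochondrial members it was 7.98e-07 for IARS2, 5.99e-06 for MARS2 and 1.3e-05 for HARS2. The same test passed for 72.2% of all genes, so a difference among lines was the usual case.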

How the results depend on the processing

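Of 276 counts of members and compartment differences recomputed under other settings, 251 kept their direction and stayed near their size. So did 206 of 222 with 1 library left out. Small moves within a set tolerance counted as near, as for the cytosolic members fallen in HT with the replicate block. These values were therefore not all unchanged. Of the values of named members, 15 of 577 lost their call under other settings, and 507 of 528 held with 1 library left out. After median-of-ratios scaling, OCI-LY3 had 0 cytosolic members risen and 1 mitochondrial member risen with 7 fallen, HT had 1 cytosolic risen, 6 fallen and 4 mitochondrial fallen, OCI-LY19 had 1 cytosolic risen and OCI-LY19R 2 cytosolic fallen. Under quantile normalization 9 mitochondrial members fell in OCI-LY3, and 5 cytosolic and 5 mitochondrial in HT. In HT, 4 cytosolic members fell with the filter at 5 FPKM and 4 with the library-name tag, and with the 2 groups alone 0 rose and 1 fell. On the TPM scale 0 mitochondrial members rose in SUDHL5, and with no filter 0 cytosolic members fell in OCI-LY19R. The change of the cytosolic minus mitochondrial difference (log2) was -0.68 in OCI-LY3, 0.34 in HT, -0.066 in OCI-LY19 and 0.0011 in SUDHL5 with the median over members; -0.17, 0.082 and -0.035 in OCI-LY3, OCI-LY19 and SUDHL5 under quantile normalization; and -0.069 in SUDHL5 with the filter at 5 FPKM. The cause was not tested.

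With 1 library left out, HT counts ran from 1 to 4 cytosolic members risen, 1 to 5 fallen and 1 to 4 mitochondrial fallen, and its compartment change from -0.00295 to 0.094. Mitochondrial members risen in SUDHL5 ran from 0 to 1, and cytosolic members fallen in OCI-LY19R from 0 to 7. With the replicate block, 3 cytosolic and 3 mitochondrial members fell in HT, TARS3 lost its call in OCI-LY19R (adjusted p = 0.0688) while AARS1 gained one (adjusted p = 0.0291), so the count there stayed at 1, and no count moved by more than 1.5 times. With 3 libraries a group, drug not separated from time, no strand setting and 4 residual degrees of freedom for OCI-LY19R, small changes are weakly determined.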

Other observations

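Of 7 genes of the stress-sensing kinases and their partners, 4 rose and 1 fell in OCI-LY3, 5 rose in HT, 2 rose and 3 fell in OCI-LY19 and 2 rose and 1 fell in SUDHL5 by limma. Of all genes tested, 40.4%, 22.9%, 34.5% and 18.6% rose and 14.3%, 9.41%, 23.7% and 19.9% fell in the same order of lines. PPP1R15A, which restores translation after stress, rose by 2.38 in OCI-LY19 and by 0.87 in HT on the log2 scale (limma adjusted p = 2.22e-10 and 0.000356). WARS1 had 13.5, 13.8 and 14.6 FPKM in OCI-LY19R and 57.9, 14.9 and 21.6 FPKM in OCI-LY19S (limma adjusted p = 0.271).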
